A study of Mus musculus with 18 samples.

Results

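The data described here are 12 of the 18 livers of a mouse study, the 6 taken on postnatal day 14 (P14) set against the 6 taken on postnatal day 5 (P5). They were chosen by the day in the sample titles, and no liver of day 7 was used. All came from C57BL/6J mice injected intraperitoneally as newborns, on days 1 and 3 of life, with a stabilized copy of miR-497a-5p, a microRNA, called the mimic here, or with an inert scrambled mimic. The protocol names doses of 10 and 100 mg/kg, and the sample labels do not repeat the dose. The groups were P14 mimic, P14 scrambled, P5 mimic and P5 scrambled, with 3 livers each, so that each age held the same number of livers of either injection. No uninjected liver was part of the comparison. The labels do not say whether livers of a group came from separate litters, so p-values measure the spread between these livers. The question was which transcripts differed between P14 and P5 once injection was held as a covariate.

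The liver of a newborn mouse is still a blood-forming organ: islands of red cell precursors, granulocyte precursors and megakaryocytes lie among the hepatocytes and leave for the bone marrow in the weeks after birth. Over the same weeks hepatocytes divide less, switch off fetal genes, divide their tasks between the zone near the portal vein and the zone near the central vein, and take up drug, bile acid, amino acid and nitrogen metabolism at adult levels. Whole liver was sequenced here, so fewer cells of a type and less RNA of a gene per cell cannot be told apart.

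The injected mimic copies a mature microRNA whose RefSeq entry (GRCm38.p6) lies on the plus strand at chr11:70234730-70234751. It is shown because both injections enter every comparison, and the capitals mark its seed, bases 2 to 8.
mmu-miR-497a-5p: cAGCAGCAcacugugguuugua

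Levels are given as scaled counts, the deposited whole numbers that already share a common scale between libraries. The 12 libraries summed to between 3954405 and 4248257 scaled counts. The liver label was checked against hepatocyte markers, which were abundant at both ages: Hnf4a, the hepatocyte master transcription factor, ranged from 1422 to 1817 scaled counts at P14 and from 1130 to 1534 at P5, and Alb, the gene of serum albumin, from 2037 to 2244 at P14 and from 1855 to 2886 at P5. P5 scrambled replicate 2 stood apart in part: of the 25 most abundant transcripts per base it had the highest value of the 12 livers in 24, and its neutrophil list held 0.306% of all scaled counts, against 0.151% to 0.19% in the other 5 P5 livers. Without it 3270 genes were higher and 3334 lower at P14. Y-linked genes summed to over 1000 scaled counts in 3 P14 and 3 P5 livers, so both ages held livers of both sexes. The sums were 1494, 2163 and 47 in P14 mimic and 1492, 28 and 27 in P14 scrambled livers. They were 41, 1388 and 148 in P5 mimic and 1429, 1459 and 68 in P5 scrambled livers. Sex was thus not balanced between injections at either age, so the comparison of the age difference between injections is partly mixed with sex. With the Y-linked level as a covariate, 1 gene passed in that comparison. Along the first principal component, which carried 67.6% of the variance of log2 values, the P14 livers lay between 41.4 and 57.9 and the P5 livers between −54.7 and −42.1.

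Of 14104 genes tested, 3300 (23.4%) were higher and 3383 (24%) were lower at P14 at an adjusted p under 0.05 (limma on log2 of the scaled count plus 1, Benjamini-Hochberg over all genes tested), 47.4% in all. The falls were larger than the rises. At least 2-fold differences were called for 495 genes higher at P14 (3.51%) and 1261 lower (8.94%), at least 8-fold for 39 higher and 180 lower, and at least 32-fold for 4 higher and 31 lower. All 6 P14 values lay above all 6 P5 values for 10.9% of the genes tested, and below them for 15.3%. The median log2 difference of all genes tested was 0.01. Below, "rose" and "fell" are used only of genes past this threshold, log2 differences are P14 minus P5 and carry the standard error (SE) of the fit with n = 6 livers of each age, and ranges are the lowest and highest of the 6 livers.

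**Figure D1:**
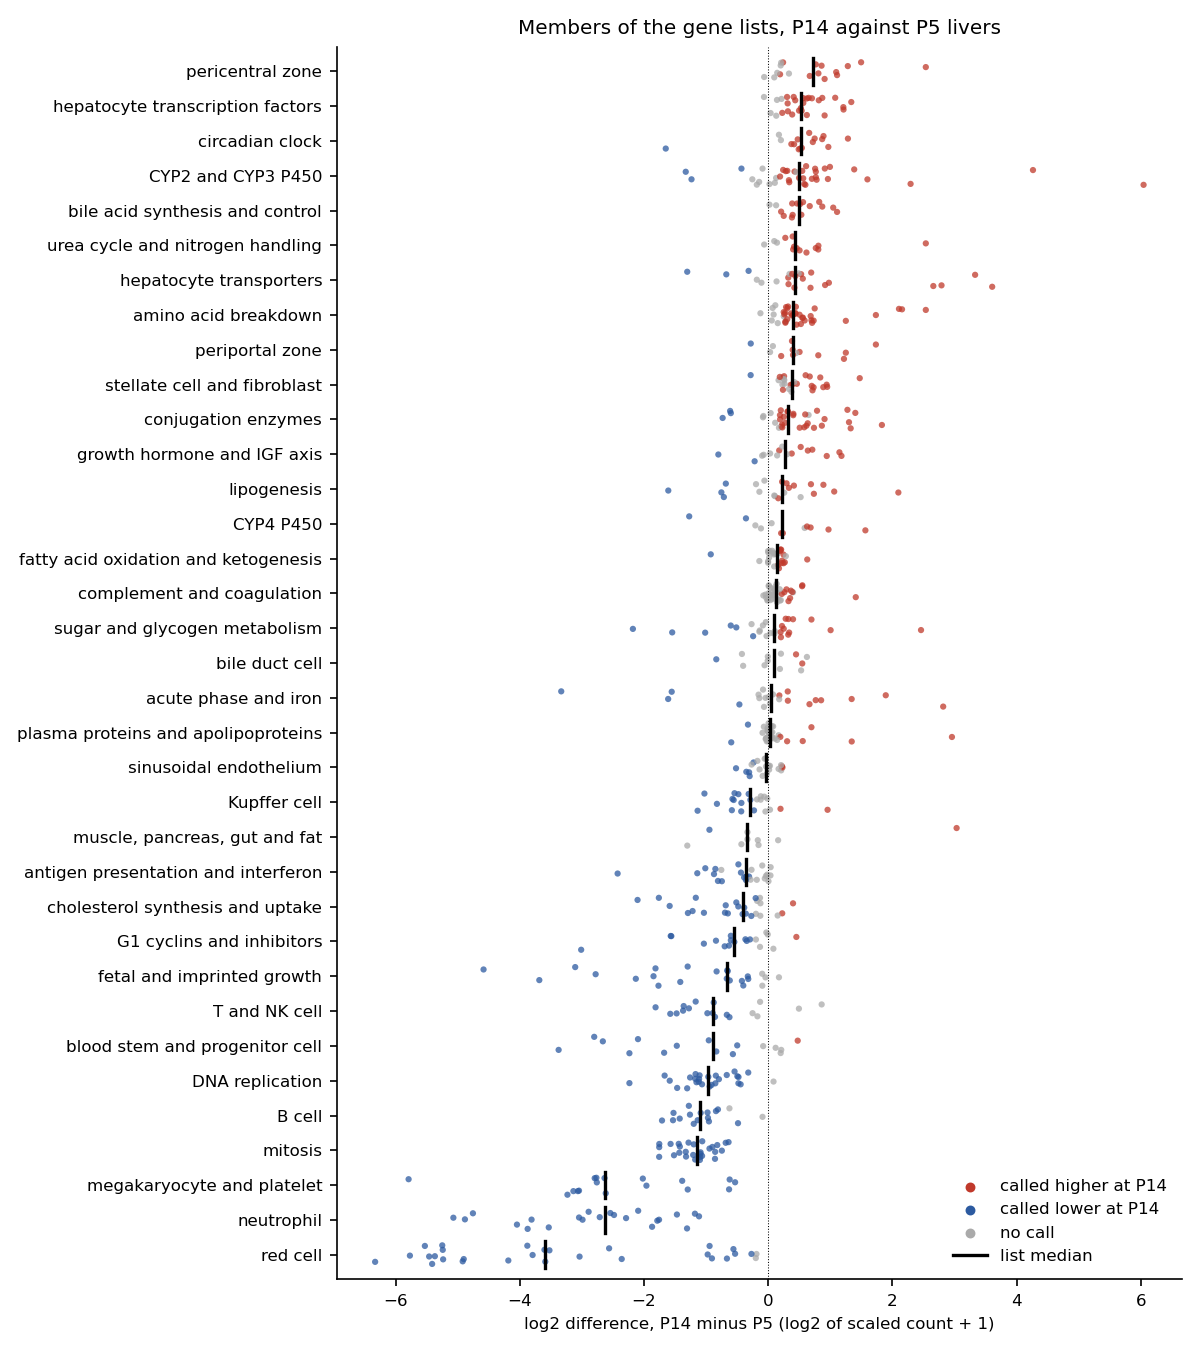
Log2 difference (P14 minus P5) of each tested member of 35 gene lists with at least 9 tested members; each point is 1 gene, red where called higher at P14, blue where called lower and grey where not called, and the black bar is the list median. Blood cell and cell division lists lie at the bottom, with a median of −3.60 for the red cell list, and hepatocyte function lists at the top, with a median of 0.72 for the pericentral list.

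Of the gene lists, the red cell list had the lowest median. Of 29 tested members of the red cell list, 27 fell and 0 rose, with a median log2 difference of −3.60, and 26 had every P14 liver below every P5 liver. The list's share of all scaled counts was 0.126% to 0.181% in the P14 livers and 0.552% to 0.755% in the P5 livers. Blood cell list members made up 51 of the 389 genes that fell at least 4-fold and 11 of the 31 that fell at least 32-fold. They made up 0 of the 106 that rose at least 4-fold. Among the 14104 genes tested, these lists held 29 red cell, 22 neutrophil and 17 megakaryocyte and platelet members. They also held 17 B cell, 18 T and NK cell and 16 blood stem and progenitor members. All lists were chosen with earlier results of these data known, so these counts describe the lists and test nothing.

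Kel, which encodes the Kell blood group protein of the red cell membrane, had 2 to 23 scaled counts in P14 livers (median 9.5), against 542 to 869 in P5 livers (median 660.5), a log2 change of −6.33 ± 0.35 (SE; adjusted p = 2.45e-09 from limma). Hemgn, a nuclear regulator of erythroid differentiation, had 2 to 48 scaled counts at P14 (median 16.5) and 669 to 942 at P5 (median 810.5), a difference of −5.77 ± 0.44. Ank1, the ankyrin that ties the red cell membrane to its skeleton, had 10 to 55 at P14 (median 29) and 1152 to 1718 at P5 (median 1218), a difference of −5.53 ± 0.29. For each of these genes the highest P14 liver stood far below the lowest P5 liver.

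Other parts of the red cell membrane followed. Epb42 (protein 4.2) fell by 5.37, Rhd and Rhag of the Rh complex fell by 5.24 and 5.23, Ermap, an erythroid membrane protein, fell by 5.46, and Slc4a1, the anion exchanger band 3, had 57 to 367 scaled counts at P14 against 2241 to 3044 at P5. The transcription factors of the lineage fell over a wider range. Gata1, its master regulator, had 3 to 16 scaled counts at P14 (median 11.5) and 322 to 502 at P5 (median 382.5), a log2 difference of −5.41 ± 0.34. Nfe2 fell by 4.18, Tal1 by 3.52 and Klf1, an activator of adult globin genes, by 3.04, the last with 41 to 76 scaled counts at P14 and 404 to 571 at P5. Epor, the receptor for erythropoietin, fell by 2.56.

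Genes of haemoglobin and haem had log2 differences between −2.36 and −0.19 for the tested genes named here. Alas2, the first enzyme of haem synthesis in red cells, had 496 to 849 scaled counts at P14 (median 669) and 1126 to 1453 at P5 (median 1261), a difference of −0.97 ± 0.10. Fech, the last enzyme of that pathway, fell by 0.53, and Slc25a37, which brings iron into mitochondria, fell by 2.36. The adult beta globin Hbb-bs had 178 to 213 scaled counts at P14 and 253 to 366 at P5 (−0.56 ± 0.09), and Hbb-bt differed by −0.66 ± 0.11. The alpha globins were not called: Hba-a1 had 67 to 73 scaled counts at P14 and 68 to 103 at P5, and Hba-a2 66 to 73 at P14 and 65 to 97 at P5. These gene pairs are near-identical copies whose reads may be split or lost. Alas2 and Hbb-bs were abundant for their length, with means of 325 and 322 scaled counts per kilobase at P14 and 633 and 478 at P5, levels at which few of all genes differed 2-fold, as given further on. The embryonic globin Hbb-bh1, below the level tested, was listed at 0 in all 6 P14 livers and at 4 to 13 in the P5 livers.

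The rule that ranked all genes by the size of the difference (mean of at least 100 scaled counts, all P14 livers on 1 side of all P5 livers) named 15 falls from −6.42 to −5.37. Besides Kel, Hemgn, Ank1, Ermap, Gata1, Epb42 and Gfi1b of the lists they were Apol8 (−6.42), Slfn14 (−6.20), the red cell skeleton protein Add2 (−6.12), Btnl10 (−6.04), Sowaha (−5.75), Ypel4 (−5.73), Ccdc92b (−5.45) and Cldn13 (−5.37). Apol8 had 0 to 8 scaled counts at P14 and 314 to 438 at P5, and Slfn14 had 2 to 11 at P14 and 315 to 549 at P5. Add2, beta adducin, had 2 to 30 scaled counts at P14 and 770 to 1149 at P5.

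**Figure D2:**
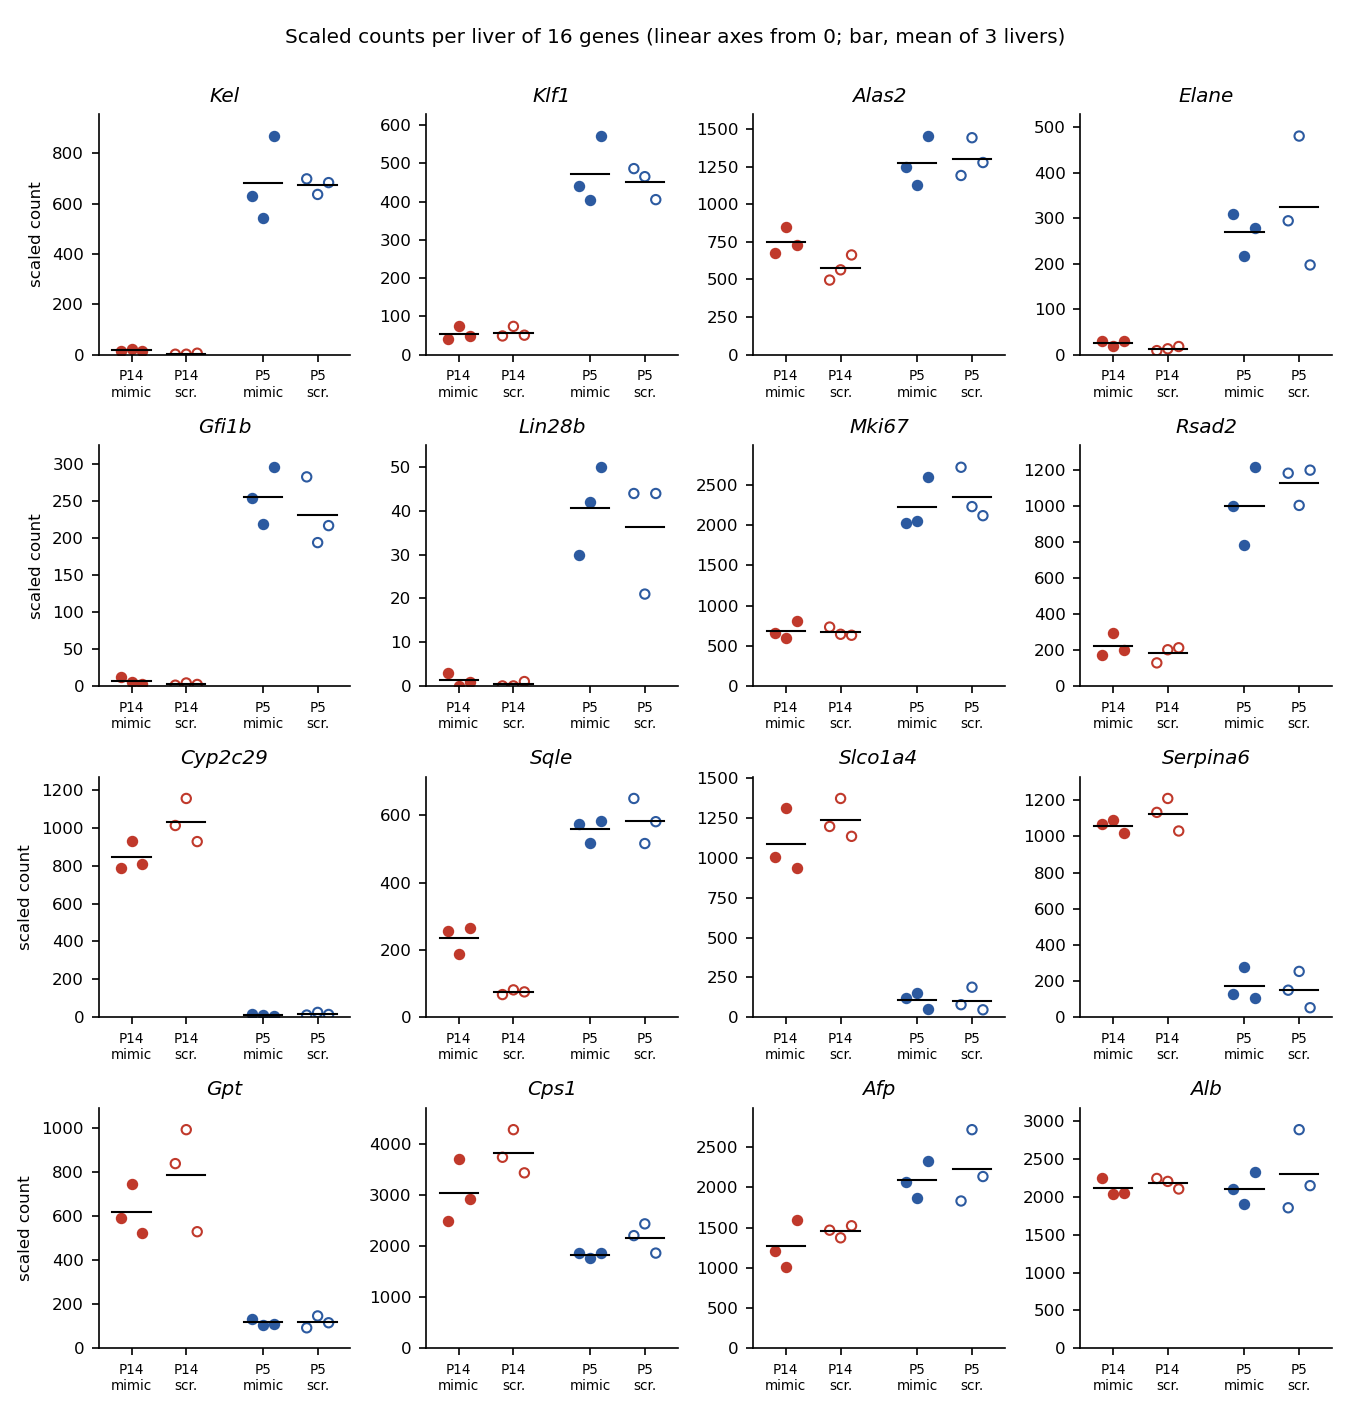
Scaled counts of 16 genes in each of the 12 livers on linear axes that start at 0, with P14 in red and P5 in blue, mimic livers filled, scrambled (scr.) livers open, and a bar at the mean of 3 livers. Kel had 2 to 23 at P14 and 542 to 869 at P5, Cyp2c29 had 791 to 1156 at P14 and 7 to 25 at P5, and the ages overlap for Alb.

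Promoters are shown for the red cell and P450 genes with the largest differences. The red cell list had the lowest median, and Cyp2c29, a P450 gene, led the rises of the ranking rule above. RefSeq promoter windows (GRCm38.p6, 250 bases before to 50 after a start) were found for 21 red cell list genes and 44 P450 list genes. A gene can have several windows, which can overlap, and the shares below count windows. Both strands were searched for AGATAAG, a core that GATA factors bind, for TATAAA, the TATA box, and for the palindrome bound by HNF1. AGATAAG stood in 5 of the 25 red cell windows (20%), in 2.11% of the 13651 windows of genes tested and in 3.04% of all 32851 windows. It stood in 0% of the 38 CYP2 and CYP3 windows and of the 11 CYP4 windows. In other lists it stood in 0% of neutrophil, 13.3% of megakaryocyte and platelet, 10.4% of conjugation enzyme and 8.11% of plasma protein windows. TATAAA stood in 20% of the red cell windows, 65.8% of the CYP2 and CYP3 windows and 9.09% of the CYP4 windows. Its share was 7.93% of the windows of genes tested and 13.6% of all windows. In those other lists, in the same order, it stood in 35%, 13.3%, 18.8% and 32.4%. The HNF1 palindrome stood in 0% of the windows of each of these lists and in 0.00913% of all windows. Of the 6 largest red cell falls with a window, those holding a match are printed below with the 2 largest P450 rises, each as the 250 bases up to its start, capitals marking AGATAAG as well as TATAAA or their reverse complements; no match overlaps one of the other motif. Kel and Gata1 held none of these letters in their windows. The positions are chr4:46404184-46404433 (minus strand) for Hemgn, chr4:119189996-119190245 (minus) for Ermap, chr2:121036878-121037127 (minus) for Epb42, chr4:134864286-134864535 (plus) for Rhd, chr19:39286835-39287084 (plus) for Cyp2c29 and chr19:39006769-39007018 (plus) for Cyp2c55.
Hemgn: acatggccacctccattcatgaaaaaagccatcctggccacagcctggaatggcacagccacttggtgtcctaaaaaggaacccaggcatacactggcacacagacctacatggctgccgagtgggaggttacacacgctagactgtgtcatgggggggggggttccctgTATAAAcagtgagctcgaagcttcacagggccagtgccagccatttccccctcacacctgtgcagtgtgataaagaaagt
Ermap: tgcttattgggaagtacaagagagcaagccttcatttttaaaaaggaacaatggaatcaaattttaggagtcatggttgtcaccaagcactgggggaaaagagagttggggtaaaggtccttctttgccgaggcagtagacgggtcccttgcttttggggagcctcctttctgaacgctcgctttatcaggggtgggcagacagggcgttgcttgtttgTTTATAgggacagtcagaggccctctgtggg
Epb42: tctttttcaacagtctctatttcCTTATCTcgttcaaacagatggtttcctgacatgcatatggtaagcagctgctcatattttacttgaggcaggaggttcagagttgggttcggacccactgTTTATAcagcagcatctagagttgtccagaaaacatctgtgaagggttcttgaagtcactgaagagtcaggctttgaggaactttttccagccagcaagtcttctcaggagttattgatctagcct
Rhd: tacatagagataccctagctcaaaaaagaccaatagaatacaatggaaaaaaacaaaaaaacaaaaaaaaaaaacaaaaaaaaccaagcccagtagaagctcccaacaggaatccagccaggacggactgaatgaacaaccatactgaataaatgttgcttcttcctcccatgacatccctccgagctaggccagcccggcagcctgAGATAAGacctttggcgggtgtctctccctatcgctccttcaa
Cyp2c29: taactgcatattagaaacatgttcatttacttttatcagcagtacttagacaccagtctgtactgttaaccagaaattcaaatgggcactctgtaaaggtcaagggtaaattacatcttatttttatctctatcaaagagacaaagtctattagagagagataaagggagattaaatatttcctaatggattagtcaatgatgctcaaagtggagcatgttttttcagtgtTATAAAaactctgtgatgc
Cyp2c55: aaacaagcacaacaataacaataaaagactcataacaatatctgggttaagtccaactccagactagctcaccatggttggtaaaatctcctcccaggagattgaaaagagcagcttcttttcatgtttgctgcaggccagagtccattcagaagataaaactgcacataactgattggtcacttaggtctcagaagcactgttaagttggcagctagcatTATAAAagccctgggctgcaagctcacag
The AGATAAG match began 43 bases before the start in Rhd and, on the other strand, 227 bases before it in Epb42. The TATAAA match began 29 bases before the start in Cyp2c55 and 19 before it in Cyp2c29. A match is a description of letters and shows no binding.

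Granulocyte genes fell without exception among those tested. All 22 tested members of the neutrophil list were called lower, with a median log2 difference of −2.63, and in all 22 the P14 livers lay below the P5 livers. Ctsg, cathepsin G, had the largest fall of the list, with 0 to 19 scaled counts at P14 (median 7.5) and 170 to 379 at P5 (median 201), a difference of −5.07 ± 0.49. Fcnb, ficolin B, fell by 4.88 and Ms4a3, a marker of granulocyte and monocyte progenitors, fell by 4.75. Elane, neutrophil elastase, had 9 to 30 scaled counts at P14 (median 19) and 197 to 480 at P5 (median 286), a difference of −3.87 ± 0.26. Mpo, myeloperoxidase, fell by 4.04. Ltf, lactoferrin, fell by 2.71 and S100a8, a protein of mature neutrophils, by 1.18, with 92 to 176 scaled counts at P14 and 254 to 455 at P5.

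All 17 tested megakaryocyte and platelet genes were also called lower, with a median of −2.63. Gfi1b, a repressor needed by red cell and platelet precursors, had 1 to 12 scaled counts at P14 (median 3) and 194 to 296 at P5 (median 236.5), a difference of −5.79 ± 0.32. Gp1ba, part of the von Willebrand factor receptor, fell by 3.14. Pf4, a chemokine stored in platelets, fell by 1.38, with 60 to 113 scaled counts at P14 and 165 to 250 at P5. Of 16 tested members of the blood stem and progenitor list, 11 fell and 1 rose (median −0.90). The falls were led by Gfi1 (−3.37), Lyl1 (−2.80) and Spn (−2.66), while Kit, the stem cell factor receptor, fell by 0.50. The member that rose was Hlf, by 0.48, a transcription factor that hepatocytes also express and that stands in the clock list too.

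Lymphocyte genes fell with smaller medians. Of 17 tested B cell genes 15 fell (median −1.09) and 0 rose. Rag1 and Rag2, the recombinase of developing lymphocytes, fell by 1.71 and 1.53. Rag1 had 10 to 52 scaled counts at P14 and 41 to 126 at P5. Cd79a, a chain of the B cell receptor, fell by 0.84, with 49 to 107 scaled counts at P14 and 96 to 191 at P5, ranges that overlap. Of 18 tested T and NK cell genes 13 fell and 0 rose (median −0.88). Gzma, granzyme A of cytotoxic cells, had 57 to 91 scaled counts at P14 and 229 to 342 at P5 (−1.81 ± 0.12), Nkg7 fell by 1.58 and Tbx21, which encodes T-bet, by 1.47. Cd3e and Cd8a of T cells were not called, at 0.86 and 0.50, though Cd3e was called higher without P5 mimic replicate 2 (1.11) or P5 scrambled replicate 1 (1.07).

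**Figure D3:**
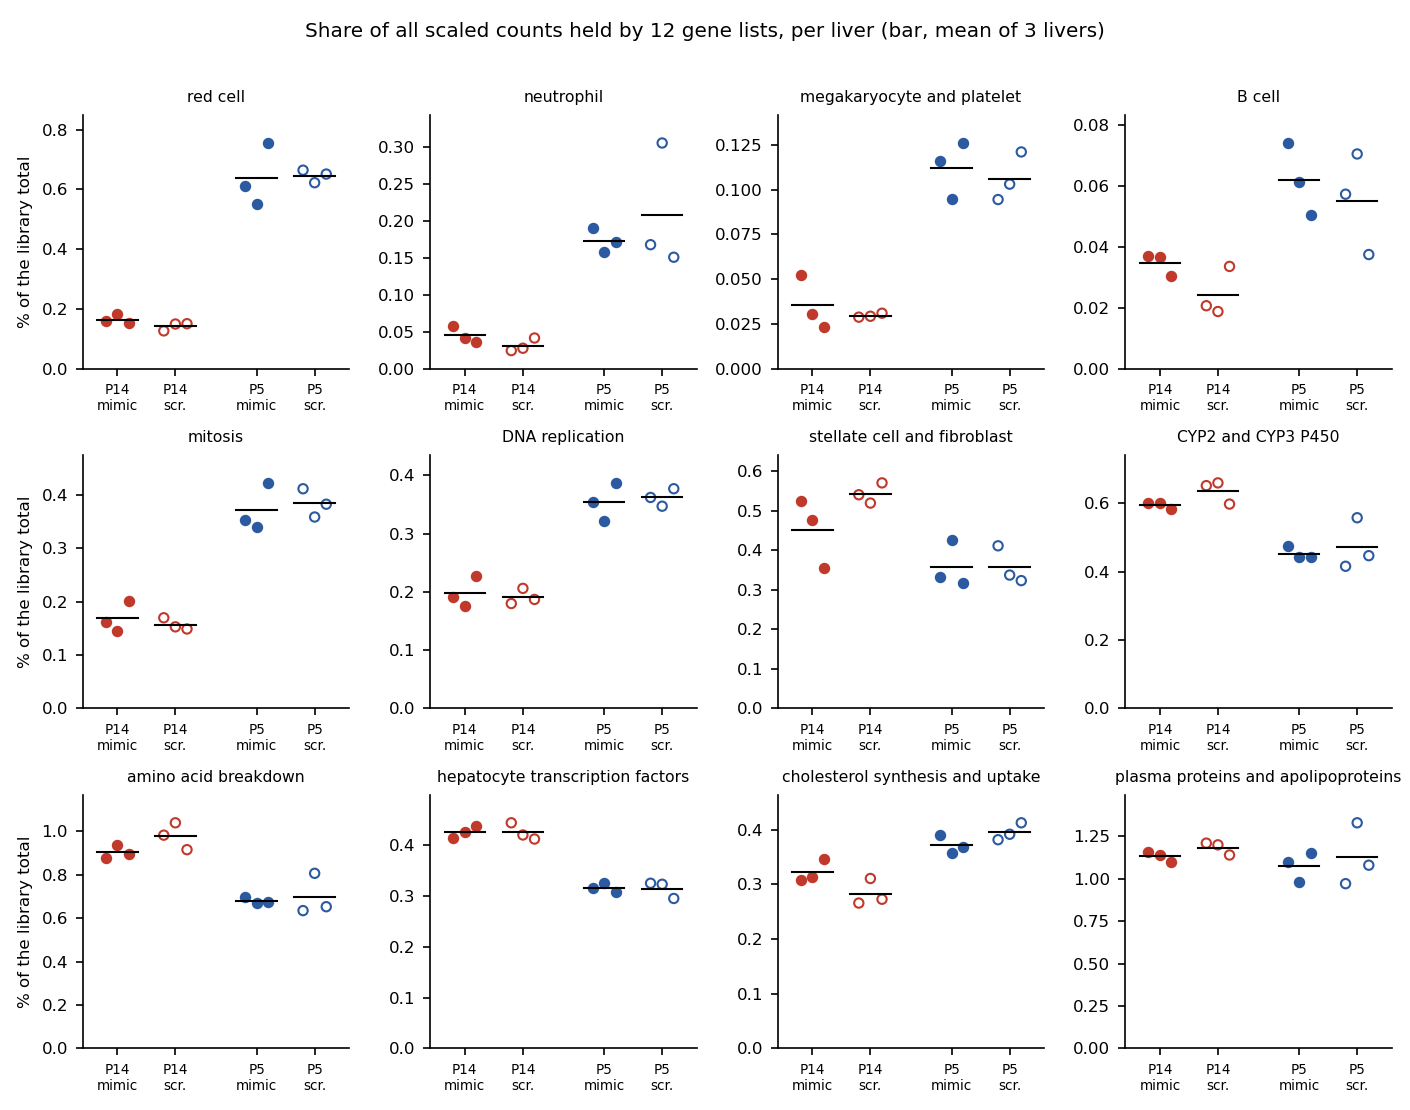
Share of all scaled counts of a library held by each of 12 gene lists, per liver, with P14 in red left of P5 in blue, mimic livers filled, scrambled livers open and a bar at the mean of 3 livers. The red cell list holds 0.126% to 0.181% at P14 and 0.552% to 0.755% at P5, whereas the plasma protein list holds 1.1% to 1.21% at P14 and 0.971% to 1.33% at P5.

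Cell division genes fell. All 28 tested mitosis genes and 26 of 27 tested replication genes were called lower, with medians of −1.14 and −0.96, and 0 rose in either list. Mki67, the proliferation marker Ki-67, had 591 to 814 scaled counts at P14 (median 650) and 2030 to 2723 at P5 (median 2176), a difference of −1.75 ± 0.09. Cenpe, a kinetochore motor, and Kif23, a motor of cytokinesis, each fell by 1.75, and Ccnb1, cyclin B1, fell by 1.18. Cdc6, which loads the replicative helicase, had 57 to 108 scaled counts at P14 and 343 to 459 at P5 (−2.23 ± 0.14). Ccne1, cyclin E1, fell by 1.67 and Uhrf1, which maintains DNA methylation during replication, by 1.58. Of 19 tested G1 genes 13 fell and 1 rose (median −0.55). E2f2 had the largest fall, with 107 to 253 scaled counts at P14 and 1102 to 1557 at P5 (−3.01 ± 0.14), followed by Cdkn2d (−1.57) and Rb1 (−1.56). Cdkn1a, the cell cycle inhibitor p21, was the member that rose, by 0.45, with 238 to 513 scaled counts at P14 and 167 to 332 at P5, a call lost without any 1 of 5 libraries (0.35 to 0.44). Ccnd1, cyclin D1, was not called, at 0.08. Dividing blood precursors and dividing hepatocytes both express these genes, and their shares of the fall were not tested.

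Genes of the fetal programme fell or were not called: 19 of 23 tested members fell and 0 rose, with a median of −0.67. Lin28b, an RNA-binding protein that blocks let-7 maturation, had 0 to 3 scaled counts at P14 (median 0.5) and 21 to 50 at P5 (median 43), a difference of −4.58 ± 0.36. Igf2bp1, a fetal mRNA-binding protein, had 0 to 6 at P14 and 28 to 74 at P5 (−3.69 ± 0.35). The imprinted genes Dlk1, a Notch-like ligand, and Meg3, a long noncoding RNA of the same locus, fell by 3.11 and 2.78, and Cd24a fell by 1.77. Afp, which encodes alpha-fetoprotein, had 1016 to 1593 scaled counts at P14 (median 1422) and 1832 to 2719 at P5 (median 2104), a difference of −0.67 ± 0.11 (limma adjusted p = 0.000155). The imprinted growth genes H19 and Igf2 were not called. H19 ranged from 1860 to 2113 scaled counts at P14 and from 1733 to 2676 at P5, and Igf2 from 2853 to 3356 at P14 and from 3057 to 4282 at P5. Both stood among the most abundant transcripts of these livers, with means of 868 and 670 scaled counts per kilobase at P14.

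Transcription factors of hepatocytes rose as a group: 23 of 28 tested members were called higher, 0 lower, and in 16 every P14 liver lay above every P5 liver (median 0.53). The largest rises were Bcl6, a repressor that takes part in sex-specific liver expression, with 76 to 205 scaled counts at P14 and 29 to 73 at P5 (1.34 ± 0.24), Zbtb20 (1.21 ± 0.11) and Nfix (1.21 ± 0.11). Zbtb20 and Zhx2 are known as postnatal repressors of Afp. Zbtb20 had 390 to 482 scaled counts at P14 (median 435.5) and 146 to 234 at P5 (median 186.5). Zhx2 had 138 to 181 at P14 (median 157) and 49 to 98 at P5 (median 76), a difference of 1.08 ± 0.17. Hnf4a rose by 0.31 ± 0.08 with overlapping ranges. The other 5 tested members were not called.

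In the growth hormone and insulin-like growth factor axis, 8 of 16 tested genes rose and 2 fell (median 0.27). Igf1, the circulating growth factor made by liver under growth hormone, had 2973 to 3447 scaled counts at P14 (median 3376) and 1447 to 2202 at P5 (median 1670), a difference of 0.94 ± 0.09. Ghr, the growth hormone receptor, rose by 0.71 ± 0.08, Prlr, the prolactin receptor, by 1.15 ± 0.11, and Stat5a, the factor downstream of both, by 1.18 ± 0.12. Igf1r, the receptor of the growth factor, fell by 0.80, and Igfbp1, a binding protein, fell by 0.22, a call lost without any 1 of 8 libraries (−0.22 to −0.17). Socs2, a feedback inhibitor of this pathway, was not called, at 0.31, but was without P14 mimic replicate 1 (0.41). The major urinary protein genes are adult targets of growth hormone and near-identical copies. Of 21 listed, 5 were in the deposited table, and the levels of the rest are not known. Among those 5, Mup3 was the member that reached the level tested. It had 22 to 71 scaled counts at P14 and 0 to 15 at P5 (3.59 ± 0.53), and Mup20 had 0 to 5 at P14 and 0 to 3 at P5.

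Drug-metabolizing genes rose in number, with a few very large rises. In the CYP2 and CYP3 list, cytochromes P450 of drug and steroid metabolism with their reductase, 26 of 37 tested members rose and 3 fell (median 0.50). Cyp2c29 had the largest rise of any gene with a mean of at least 100 scaled counts. It had 791 to 1156 scaled counts at P14 (median 930.5) and 7 to 25 at P5 (median 13.5), a difference of 6.05 ± 0.19 (limma adjusted p = 9.8e-12). Every P14 liver stood far above every P5 liver. Cyp2c55 followed with 164 to 376 at P14 (median 249.5) and 5 to 43 at P5 (median 7), a difference of 4.26 ± 0.35. Cyp2b10, a target of the xenobiotic receptor CAR, had 38 to 220 scaled counts at P14 and 6 to 38 at P5 (2.29 ± 0.43), ranges that touch at 38. Members of the Cyp2c, Cyp2b and Cyp3a clusters are close copies, and the sources used here do not say how reads shared between them were counted.

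The abundant P450 genes rose less, and few of all genes at a high level per base differed 2-fold, as given further on. Cyp1a2 had 863 to 1122 scaled counts at P14 and 501 to 807 at P5 (0.77 ± 0.11), Cyp2b9 rose by 0.43, Cyp3a11 by 0.31 and Cyp2e1 by 0.19, the last with an adjusted p of 0.0494 from limma and a call lost without any 1 of 11 libraries (0.16 to 0.21). Cyp3a16, a form of the fetal and newborn liver, was not called, with 855 to 964 scaled counts at P14 and 763 to 1003 at P5; without P5 scrambled replicate 2 it was called higher (0.15). The members that fell were Cyp3a41a (−1.33), Cyp2c54 (−1.23) and Cyp2d9 (−0.43). In the CYP4 list, fatty acid hydroxylases, 6 of 12 tested members rose and 2 fell (median 0.22): Cyp4f14 rose by 1.57, Cyp4v3 by 0.97 and Cyp4f15 by 0.68, and Cyp4f18 fell by 1.27 and Cyp4b1 by 0.36, the last call lost without any 1 of 5 libraries (−0.34 to −0.29).

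Of 35 tested conjugation enzymes, which attach glucuronide, sulfate or glutathione, 26 rose and 3 fell (median 0.32). Ugt2a3, a glucuronosyltransferase, had 411 to 698 scaled counts at P14 and 88 to 229 at P5 (1.83 ± 0.19). Ugt3a1 rose by 1.40 and Gstm3, a glutathione transferase, by 1.33, while Gstt2 fell by 0.73, Gstm5 by 0.61 and Sult5a1 by 0.60, the last call lost without any 1 of 9 libraries (−0.62 to −0.49). Further enzymes stood among the 15 largest rises of genes with a mean of at least 100 and no overlap between ages. Sult2a5, a sulfotransferase with close copies, rose by 4.25 and Rdh16, a retinol dehydrogenase, by 2.73.

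Transporters of the hepatocyte surface rose in 15 of 23 tested cases and fell in 3 (median 0.44). Slco1a4, an organic anion importer, had 940 to 1374 scaled counts at P14 (median 1167) and 46 to 188 at P5 (median 99.5), a difference of 3.61 ± 0.29. Slco2b1, of the same family, rose by 3.33 ± 0.16, Slc22a3, an organic cation transporter, by 2.79 ± 0.32 and Slc22a7, an organic anion transporter, by 2.66 ± 0.32. Slc22a29 (4.61) and Slc22a26 (2.71), members of a cluster of close copies, were among the same 15 rises, ranked within that limit on the mean and overlap. Abcb11, the bile salt export pump, rose by 0.33. Slco1a1, which adult males express strongly, stood near the floor at both ages, with 3 to 7 scaled counts at P14 and 6 to 22 at P5 (−1.30 ± 0.30). Abcc4 fell by 0.67 and Abcg2 by 0.32. Other genes of those 15, within the same limit, were Ntrk2 (4.32), the receptor of a neurotrophin, and H2-Q1 (4.17), a class I gene of the histocompatibility complex. The rest were Atp6v0d2 (3.07), a subunit of the proton pump, Serpina6 (2.96), Cdhr5 (2.78) and Mgp (2.69).

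Bile acid genes rose in 14 of 16 tested cases and fell in 0 (median 0.49). Cyp7a1, the rate-limiting enzyme of bile acid synthesis, had 434 to 1068 scaled counts at P14 (median 637.5) and 255 to 398 at P5 (median 341), a difference of 1.05 ± 0.19. Cyp27a1, which starts the alternative route, had 461 to 560 at P14 and 222 to 266 at P5 (1.11 ± 0.07). Nr0b2, the repressor SHP that bile acids induce, rose by 0.87 ± 0.09, and Fgfr4, the receptor for the intestinal signal that lowers synthesis, rose by 0.53. Cyp8b1, which makes the 12-hydroxylated bile acids, was not called, with 796 to 1105 scaled counts at P14 and 797 to 1189 at P5.

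Nitrogen and amino acid metabolism rose with few exceptions. Of 39 tested amino acid breakdown genes 31 rose and 0 fell (median 0.40), and of 14 tested urea cycle and nitrogen genes 11 rose and 0 fell (median 0.44). Gpt, alanine aminotransferase, had 522 to 992 scaled counts at P14 (median 669.5) and 93 to 147 at P5 (median 113), a difference of 2.54 ± 0.15. Tdo2, which opens the tryptophan ring, had 1315 to 1697 at P14 and 205 to 784 at P5 (2.16 ± 0.25). Prodh, proline dehydrogenase, rose by 2.11 ± 0.21, and Tat, tyrosine aminotransferase, by 0.51 ± 0.10. Cps1, the first enzyme of the urea cycle, had 2496 to 4278 scaled counts at P14 (median 3572) and 1762 to 2435 at P5 (median 1864), a difference of 0.77 ± 0.10. Oat, ornithine aminotransferase, and Gls2, a glutaminase, each rose by 0.81.

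Genes of both liver zones rose. Of 18 tested pericentral genes 12 rose and 0 fell (median 0.72), and of 13 tested periportal genes 9 rose and 1 fell (median 0.40). Among pericentral genes Slc1a2, a glutamate transporter, had 326 to 664 scaled counts at P14 (median 473.5) and 43 to 191 at P5 (median 73.5), a difference of 2.54 ± 0.28. The Wnt targets Notum, Lgr5 and Sp5 rose by 1.50, 1.10 and 1.28, whereas Axin2, also a Wnt target, was not called, at 0.34. Glul, glutamine synthetase, the classical marker of the cells around the central vein, was not called, with 1274 to 1631 scaled counts at P14 and 1208 to 1513 at P5. Among periportal genes Sds, serine dehydratase, rose by 1.74 ± 0.22, Hal, histidase, by 1.25 ± 0.13 and Pigr, the polymeric immunoglobulin receptor, by 1.22 ± 0.17, and Ctsc fell by 0.28, a call lost without any 1 of 10 libraries (−0.29 to −0.22).

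Sugar metabolism changed in both directions, with 12 of 27 tested genes higher and 6 lower (median 0.10). Hk1, a hexokinase, had 117 to 176 scaled counts at P14 (median 145) and 583 to 829 at P5 (median 617.5), a difference of −2.18 ± 0.12. Hk3, expressed in myeloid cells, fell by 1.54 and Hk2 by 1.01. Ppp1r3b, which targets a phosphatase to glycogen, rose by 1.01, and Khk, the fructose kinase, by 0.70. Blood cells express Hk1, Hk2 and Hk3 too, and the fall of the neutrophil and red cell lists stands beside theirs; its part in them was not tested.

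Cholesterol synthesis fell. Of 25 tested genes of synthesis and uptake 17 fell and 2 rose (median −0.41). Sqle, squalene epoxidase, had 67 to 266 scaled counts at P14 (median 134) and 516 to 650 at P5 (median 578), a difference of −2.10 ± 0.24. Mvd, of the mevalonate part, fell by 1.59 ± 0.20, and Cyp51, lanosterol demethylase, fell by 1.03. The members that rose were Sc5d (0.40) and Ebp (0.23), late steps of the pathway, the call of Ebp being lost without any 1 of 8 libraries (0.18 to 0.23).

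Fatty acid genes were mixed. Of 21 tested lipogenesis genes 10 rose and 4 fell (median 0.23). Thrsp, a nuclear protein induced with lipogenesis, had 28 to 183 scaled counts at P14 and 3 to 52 at P5 (2.10 ± 0.55), Scd1, the desaturase of adult liver, had 418 to 1528 at P14 and 270 to 508 at P5 (1.06 ± 0.23), and Srebf1, their regulator, rose by 0.89 ± 0.10. Elovl6, an elongase, fell by 1.61 ± 0.21, Scd2, the desaturase of fetal liver, by 0.75 ± 0.07 and Pnpla3 by 0.71. Fasn, fatty acid synthase, was not called, with 637 to 991 scaled counts at P14 and 684 to 970 at P5; without P14 mimic replicate 3 it was called lower (−0.27). Of 28 tested oxidation and ketogenesis genes 12 rose and 1 fell (median 0.14), a called share of 46.4% against 47.4% of all genes; without P14 scrambled replicate 2, 6 rose. Ppargc1a, a coactivator of oxidative genes, rose by 0.63, Acaa1b by 0.27 and Cpt2 by 0.25, and Acot1 fell by 0.92. The call of Ppargc1a was lost without P14 mimic replicate 2 (0.53), P14 scrambled replicate 2 (0.55) or P5 scrambled replicate 2 (0.55).

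Secreted proteins differed little, apart from a few members. Of 36 tested plasma protein and apolipoprotein genes 6 rose and 2 fell (median 0.03), and of 38 tested complement and coagulation genes 10 rose and 0 fell (median 0.12), called shares of 22.2% and 26.3%. Without P5 scrambled replicate 2 the counts that rose were 10 and 17. Serpina6, which encodes corticosteroid-binding globulin, had 1019 to 1210 scaled counts at P14 (median 1080) and 52 to 277 at P5 (median 138.5), a difference of 2.96 ± 0.30. Apoc2 rose by 1.35 from low levels, and Serpina3k by 0.70. Apoa4 fell by 0.59 and Serpina7, thyroxine-binding globulin, by 0.33. C9, the last component of the complement pore, had 472 to 858 scaled counts at P14 and 163 to 422 at P5 (1.41 ± 0.19), and Pros1 and F9, of coagulation, rose by 0.55 each.

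Differences were small wherever the level per base was high. At under 0.02 scaled counts per base of transcript, 24.2% of genes were called with at least a 2-fold difference; at 0.1 to 0.2 it was 6.7%, at 0.4 to 0.8 it was 1.12%, and at 0.8 or more it was 0 of 25 genes. Those 25 include Alb and H19, and their log2 differences ran from −0.67 (Afp) to 0.22 (Ces1c), the members that were called. The call of Ces1c was lost without any 1 of 10 libraries (0.17 to 0.23). Whether the counting set an upper limit on these transcripts was not tested, and the absence of a call for an abundant gene (Alb, H19, Igf2, Glul) shows no more than that its scaled counts did not differ beyond the spread. Whether such a limit also reduced the called differences of abundant genes was not tested either.

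**Figure D4:**
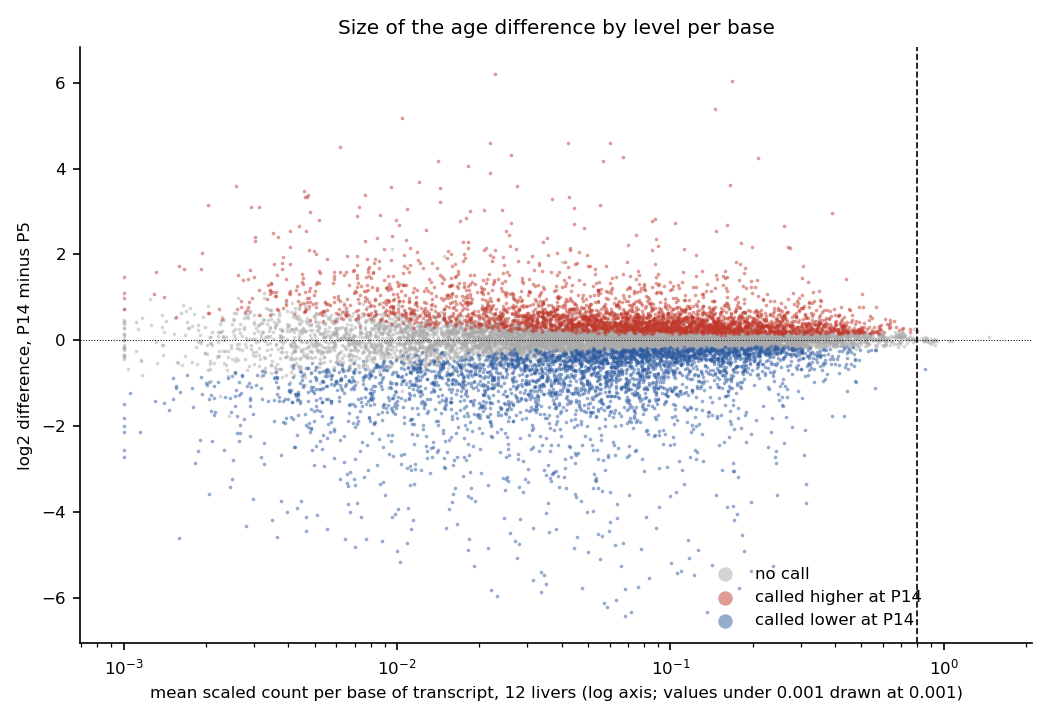
Log2 difference (P14 minus P5) of 14096 tested genes with a transcript length against the mean scaled count per base of transcript over 12 livers, on a log axis; colours mark calls and the dashed line stands at 0.8. The cloud narrows to the right, and at 0.8 or more per base the differences lie between −0.67 and 0.22.

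Iron and acute phase genes held changes in both directions, with 9 of 22 tested members higher and 4 lower (median 0.05). Hamp, the gene of hepcidin, the hormone that blocks iron release, had 7 to 91 scaled counts at P14 (median 18) and 143 to 333 at P5 (median 225.5), a difference of −3.33 ± 0.43. Its near copy Hamp2 had 17 to 146 at P14 and 1 to 45 at P5 (2.82 ± 0.74), ranges that overlap. Saa2 and Saa1, serum amyloid A genes that are close copies, rose by 1.89 and 1.34. Orm1 fell by 1.61 and Il1rn, the interleukin 1 receptor antagonist, by 1.55. Orm1 had 4 to 25 scaled counts at P14 and 11 to 322 at P5, a range set by P5 scrambled replicate 2, without which the difference was −0.92; the call was lost without any 1 of 6 other libraries (−1.71 to −1.32). Alas1, the haem enzyme of hepatocytes, rose by 0.67.

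The resident non-parenchymal cells differed by cell type. Of 22 tested Kupffer cell genes, those of the liver macrophage, 13 fell and 2 rose (median −0.30). Spic, a regulator of iron-recycling macrophages, had 68 to 92 scaled counts at P14 and 130 to 234 at P5 (−1.14 ± 0.13), Xcr1 fell by 1.03 and the macrophage marker Adgre1 by 0.82, while Cd207 rose by 0.96 and Nr1h3 by 0.20. Cd207 lost its call without any 1 of 7 libraries (0.78 to 0.96), and Nr1h3 without P14 scrambled replicate 2 (0.17). Clec4f, which is specific to Kupffer cells, was not called, with 793 to 954 scaled counts at P14 and 853 to 1013 at P5; without P14 mimic replicate 2 it was called lower (−0.16). Of 22 tested sinusoidal endothelial genes 5 fell and 2 rose (median −0.04): Lyve1 fell by 0.52, Ehd3 by 0.35 and Stab1 by 0.31, Flt1 rose by 0.23 and Fcgr2b by 0.22, and Stab2 was not called, at −0.14, but was without P5 scrambled replicate 3 (−0.19). The call of Flt1 was lost without P14 scrambled replicate 3 (0.17), P5 mimic replicate 3 (0.22) or P5 scrambled replicate 3 (0.19), and that of Fcgr2b without any 1 of 8 libraries (0.167 to 0.235).

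Stellate cell and fibroblast genes rose in 16 of 26 tested cases and fell in 1 (median 0.39). Rgs5, a pericyte gene, had 578 to 1242 scaled counts at P14 (median 1040) and 227 to 550 at P5 (median 334.5), a difference of 1.48 ± 0.22. The collagens Col6a1 and Col1a1 rose by 0.95 and 0.94, the last with 1231 to 2083 scaled counts at P14 and 614 to 1255 at P5, and Vim fell by 0.28. Of 12 tested bile duct genes 2 rose and 1 fell: Pkhd1 rose by 0.55, Cldn7 fell by 0.83 and Krt19 was not called, with 41 to 118 scaled counts at P14 and 17 to 134 at P5. Other tissues were low. In the list of muscle, pancreas, gut and fat genes, 1 of 9 tested members rose and 1 fell, Cela2a by 3.04 (29 to 47 scaled counts at P14 and 0 to 14 at P5) and Vil1 by 0.95. The call of Vil1 was lost without P14 scrambled replicate 2 (−0.86) or P5 mimic replicate 3 (−0.85). The mesothelium list summed to 39 to 522 scaled counts at P14 and 39 to 247 at P5, and 0 of its 3 tested members were called.

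Interferon and antigen presentation genes fell in 13 of 24 tested cases and rose in 0 (median −0.36). Rsad2, the antiviral protein viperin, had 128 to 296 scaled counts at P14 (median 199) and 784 to 1215 at P5 (median 1092), a difference of −2.42 ± 0.16. Isg15, a ubiquitin-like modifier, had 105 to 142 at P14 and 203 to 338 at P5 (−1.14 ± 0.12), and Mx1 fell by 1.01. The other 11 tested members, with the class I heavy chains of the list among them, were not called. H2-Q1, a class I gene outside this list, rose by 4.17, with 207 to 334 scaled counts at P14 and 7 to 34 at P5. The neutrophil and red cell lists were lower at P14 too, and their part in this fall was not tested.

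Clock genes rose in 13 of 16 tested cases and fell in 1 (median 0.53). Npas2 rose by 1.28 ± 0.31, Per3 by 0.97 ± 0.21, Per1 by 0.87 ± 0.18 and Nr1d1 by 0.89 ± 0.22, each with overlapping ages, and the repressor Bhlhe41 fell by 1.65 with 4 to 11 scaled counts at P14 and 13 to 24 at P5. The labels give no hour of collection.

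The age difference was then compared between the injections. Of 6683 genes called over both injections, 6681 had the same sign in mimic livers and in scrambled livers. A call over both injections rests on the mean of their age differences, which favours the same sign in each. This count is therefore no test of agreement. The difference of the age difference, mimic minus scrambled, passed an adjusted p of 0.05 for 1 gene of 14104 (0.00709%), while 467 genes were at an unadjusted p under 0.05. That gene was Sqle (1.70 ± 0.20, limma adjusted p = 0.00633), which did not pass when the trend was left out of the fit. It had 256, 187 and 266 scaled counts in the P14 mimic livers and 67, 81 and 75 in the P14 scrambled livers, against 575, 519 and 584 in the P5 mimic livers and 650, 516 and 581 in the P5 scrambled livers. The fall of this gene at P14 was 1.26 on the log2 scale in mimic livers and 2.95 in scrambled livers, and the mimic and scrambled livers overlapped at P5 but not at P14.

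The next genes by p did not pass. Mme, neprilysin (−1.96 ± 0.32, limma adjusted p = 0.15), and Olfml2a (−2.97 ± 0.50, limma adjusted p = 0.15) had larger differences in scrambled livers, as did Map3k7cl (−2.79 ± 0.51) and Itga7 (−1.49 ± 0.28), both with an adjusted p of 0.224 from limma. Olfml2a had 44, 44 and 29 scaled counts in the P14 mimic livers and 133, 115 and 307 in the P14 scrambled livers, against 18, 33 and 28 in the P5 mimic livers and 12, 17 and 12 in the P5 scrambled livers. Cyp51, of the same pathway as Sqle, differed by 1.00 ± 0.19 (limma adjusted p = 0.224), with 727, 612 and 677 scaled counts in the P14 mimic livers and 318, 471 and 396 in the P14 scrambled livers.

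The red cell list fell in both injections, with a median log2 difference of −3.43 in mimic livers and −4.07 in scrambled livers. Medians of other lists differed too: −2.18 in mimic and −3.24 in scrambled livers for the neutrophil list, and −0.297 and 0.427 for the bile duct list. For the megakaryocyte and platelet list they were −2.61 and −2.53. Differences of list medians between injections were not tested. Kel had 15, 23 and 13 scaled counts in the P14 mimic livers and 2, 2 and 6 in the P14 scrambled livers, and its difference between injections did not pass (2.15 ± 0.44, limma adjusted p = 0.304) unless P14 scrambled replicate 3 was left out (2.56, limma adjusted p = 0.019).

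**Figure D5:**
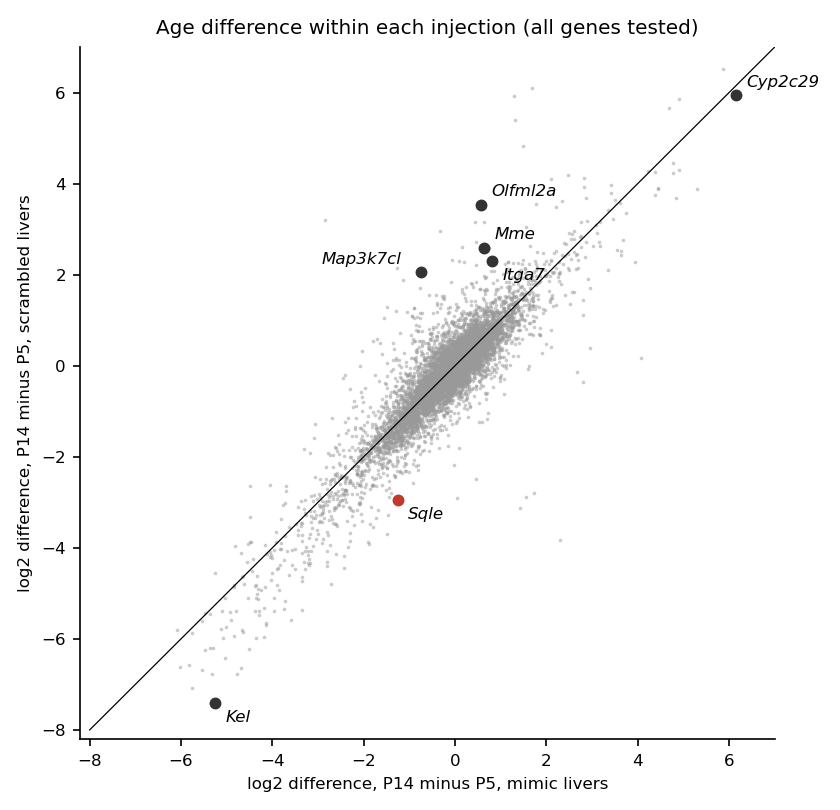
Log2 difference between P14 and P5 in mimic livers (horizontal axis) and in scrambled livers (vertical axis) for 14104 tested genes, each from 3 against 3 livers, with the line of equality. Sqle, at −1.26 and −2.95, is the gene whose difference between injections passed the threshold.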

How the data were processed

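The deposited table holds scaled whole-number scores per gene, counts that the authors had put on a common scale and rounded. Poly(A) RNA of whole liver went into stranded libraries, per the labels' protocols. The submitters' processing notes name Trimmomatic 0.39, STAR 2.6.1d, Picard 2.21.7, featureCounts 1.6.5, DESeq2 1.26.0 and the build mm10 (GRCm38), without their roles. Whether duplicate reads were removed, and the treatment of shared reads, are not given in the sources used here. The raw counts behind the scores are not recovered, so the depth of each library is unknown. The 12 libraries summed to 3954405 to 4248257 scaled counts, with size factors recomputed from the table of 1.007 to 1.011.

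Of 31165 genes, 14104 (45.3%) had a mean of at least 10 over all 18 libraries and were tested. Log2 of the scaled count plus 1 was fitted with limma 3.58.1 in R 4.3.3, with age and injection as terms, empirical Bayes moderation with a trend, 9 residual degrees of freedom and Benjamini-Hochberg adjustment over all genes tested, and a second fit held the age by injection term. Fold changes on this scale understate the change of low genes. The planned edgeR and DESeq2 fits were not run, because the values are not raw counts. The script was tested on simulated data. Tables and figures used Python 3.11.15, pandas 2.3.3, numpy 2.4.6, scipy 1.17.1 and matplotlib 3.10.9.

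The members and gene lists were chosen with earlier results of these data known. Genes were named by rule: the 15 largest rises and falls with a mean of at least 100 and no overlap between ages, the 3 largest called each way per list, markers always given, and the leading genes of the age by injection term. Some genes that the rule names are not reported here. Members outside the rule were added for context after their values were seen. Transcript lengths came from GENCODE M21, and sequences from RefSeq. The table held 0 mitochondrial and 9 Y-linked genes. Alternatives changed the pseudocount (5), the filter (none, or a mean of at least 50), the scaling, the libraries, the covariates, the trend and the replicate block.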

Additional observations from a re-analysis of the deposited data

Results flagged for a closer look

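In each of the 216 tested genes named above, the 6 livers of either age were checked for a value far from the other 5 by Dixon's criterion. It was met in 38 of 432 groups of livers (8.8%). The nominal rate of about 1 in 20 assumes normal values from 1 population. These groups mix both injections, and some hold low whole numbers, so no excess over chance can be read from this share. P5 scrambled replicate 2 held 13 of the 38, each time as the highest P5 liver, with these scaled counts: Ces1c 1773, Ctsg 379, Cyp2e1 1623, Cyp3a11 1650, Cyp4f14 479, Cyp4f15 667, Fcnb 531, Gfi1 113, Igf2 4282, Ltf 1901, Ms4a3 304, Orm1 322 and S100a8 455. Neutrophil, P450 and abundant hepatocyte genes are among them, and the counts of all genes higher and lower without this library are given above.

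P14 mimic replicate 1 was the highest liver of its age for Gfi1b 12, Gp1ba 51 and Lin28b 3 scaled counts. P14 mimic replicate 1 was the lowest liver of its age for Cyp3a41a 4 scaled counts. P14 mimic replicate 2 was the highest liver of its age for Clec4f 954 scaled counts. P14 mimic replicate 3 was the highest liver of its age for Ccne1 224, Mvd 158 and Sp5 83 scaled counts. P14 scrambled replicate 1 was the highest liver of its age for Abcg2 612 and Acaa1b 841 scaled counts. P14 scrambled replicate 1 was the lowest liver of its age for Hbb-bs 178 scaled counts. P14 scrambled replicate 2 was the highest liver of its age for Hamp 91 and Scd1 1528 scaled counts. P14 scrambled replicate 3 was the highest liver of its age for Bhlhe41 11, Il1rn 240, Map3k7cl 75 and Olfml2a 307 scaled counts. P14 scrambled replicate 3 was the lowest liver of its age for H2-Q1 207 and Prodh 91 scaled counts. P5 mimic replicate 2 was the lowest liver of its age for Abcb11 1041 scaled counts. P5 mimic replicate 3 was the highest liver of its age for Cldn7 135 scaled counts. P5 scrambled replicate 1 was the highest liver of its age for Il1rn 425 scaled counts. P5 scrambled replicate 3 was the highest liver of its age for Mx1 69, Ntrk2 72 and Scd1 508 scaled counts.

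The age difference of Sqle differed between the injections by 1.7 on the log2 scale, mimic minus scrambled, with values per liver given above. This difference passed the threshold in the main fit (limma, adjusted over all genes tested) but not in the fit with no trend.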

How the results depend on the processing

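Of 199 called gene results, 148 kept direction and call under every alternative run and 51 lost the call under at least 1. Over 5343 values, 5147 kept both, 196 lost the call and 0 turned sign; 37 of the losses came with the scrambled libraries alone and 23 with the mimic libraries alone, fits with fewer samples. Genes higher at P14 numbered 1718 with scrambled libraries alone and 1971 with mimic libraries alone. Genes higher at least 2-fold numbered 802 with no filter and 252 at a mean of at least 50, and genes lower at least 2-fold 821 at that mean, where the genes tested also differ in number. The age by injection term gave 0 genes with no trend, so that Sqle lost its call there. Leaving out 1 library gave 2842 to 3270 genes higher, 3120 to 3334 lower, 476 to 544 higher and 1196 to 1322 lower at least 2-fold, and 1 to 2 for the age by injection term, the 2 without P14 scrambled replicate 3, and 15 called genes lost their call without at least 1 library. Log2 differences of uncalled genes changed sign in these cases, and the cause was not tested. With quantile normalization they were −0.0533 for Cyp8b1, −0.00825 for Glul, 0.0218 for Hba-a1 and 0.00463 for Hba-a2, where Igf2 was called, at −0.28. With the length slope as a covariate they were 0.0232 for Alb and 0.002 for H19. With mimic libraries alone they were 0.00587 for Alb, −0.0149 for Cyp8b1, −0.293 for Krt19 and −0.738 for Map3k7cl. Without 1 library Alb ranged from −0.0812 to 0.0604, H19 from −0.104 to 0.0352 and Cyp8b1 from −0.0323 to 0.0958. Quantile normalization moved the median of all genes to 0.067 and the share of calls that were higher to 57%, against 49.4%. No pairing of the livers by replicate number was seen. Correlations of 18 same-number pairs ran from −0.234 to 0.244, and 4 were above 0.1. Those of other-number pairs ran from −0.303 to 0.385, and 3 libraries correlated best with their own number. With 3 livers per group and no litter in the labels, these values cannot show whether livers shared a litter or batch. With the replicate block 3128 genes were higher, 3266 lower, 491 and 1261 at least 2-fold, 1 gene passed for the age by injection term, and Cyp2e1, Fcgr2b and Igfbp1 lost their calls. Small differences are limited by 6 livers per age and unknown depth.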
